A study of Mus musculus with 31 samples.

Results

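Olfactory receptor loci were followed as regions of genes that T cells do not use, through 381 of the 104979 open-chromatin peaks measured in mouse regulatory T cells (Tregs). A peak belonged to the set when the gene list of the deposited annotation held a symbol starting with Olfr and a digit. The study used ATAC-seq, in which the transposase Tn5 cuts and tags accessible DNA, on splenic Tregs that were sorted from C57BL/6 mice with an RFP-FoxP3 reporter. Mice had received 20 µg of FP (a fusion of mIL-2 and CD25), 5 µg of mIL-2 (IL2) or 100 µL of PBS. Libraries were made 0.75 h after FP (n = 3), IL2 (n = 3) or PBS (n = 3), 16 h after FP (n = 3), IL2 (n = 3) or PBS (n = 3), 72 h after FP (n = 3) or PBS (n = 3) and 168 h after FP (n = 4) or PBS (n = 3). The treatment protocol in the labels names only 0.75 h, and the other times are known from sample titles and column names. The labels do not say that libraries came from separate animals, so p values measure the spread between these samples, which may be technical. FP and IL2 differ in dose as well as in molecule, and each time has its own date in the labels, so time and date cannot be told apart.

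Olfactory receptors are G protein-coupled receptors that detect odorants. Their genes form large tandem clusters, and a mature olfactory sensory neuron transcribes a single receptor allele, chosen with the help of the factors LHX2, LDB1 and EBF, while heterochromatin proteins keep the other copies silent. Most other tissues transcribe few or none of these genes, which is why such loci can serve as a closed reference in an accessibility study.

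Chosen by rank were the 3 most accessible peaks and the most accessible peak shared with another gene. The peaks with the lowest unadjusted p in FP libraries at 72 h and in IL2 libraries at 0.75 h were added. Sequences of these 6 peaks are shown first. Each is the stretch of 120 bases, read from the RefSeq GRCm38.p6 genome, that holds the most different motifs among 9 that were searched (CTCF by its consensus, STAT5 as TTCNNNGAA, RUNX as TGTGGT, ETS as CCGGAA, AP-1 as TGANTCA, NF-kB as GGGANTTCC, EBF as CCCNNGGG, LHX as TAATTA and GATA as AGATAA, on both strands), with the matches in capitals. They are given 5′ to 3′.
Olfr750 peak, chr14:51064890-51065009, + strand: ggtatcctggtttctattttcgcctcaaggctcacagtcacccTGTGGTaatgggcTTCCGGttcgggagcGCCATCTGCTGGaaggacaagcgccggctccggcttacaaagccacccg
Olfr433 peak, chr1:174041024-174041143, + strand: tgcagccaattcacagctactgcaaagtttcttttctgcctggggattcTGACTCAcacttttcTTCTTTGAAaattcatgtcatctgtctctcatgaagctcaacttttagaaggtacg
Olfr693 peak, chr7:106645019-106645138, + strand: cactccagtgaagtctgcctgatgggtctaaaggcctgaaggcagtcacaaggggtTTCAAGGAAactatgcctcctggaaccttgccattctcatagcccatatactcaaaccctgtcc
Olfr56 and 9930111J21Rik2 peak, chr11:49051360-49051479, + strand: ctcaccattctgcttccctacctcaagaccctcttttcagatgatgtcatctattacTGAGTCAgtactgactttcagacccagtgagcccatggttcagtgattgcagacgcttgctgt
Olfr525 peak, chr7:140321068-140321187, + strand: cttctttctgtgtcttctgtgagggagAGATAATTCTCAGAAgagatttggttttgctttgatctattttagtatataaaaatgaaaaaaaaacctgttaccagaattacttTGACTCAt
Olfr15 peak, chr16:3839753-3839872, + strand: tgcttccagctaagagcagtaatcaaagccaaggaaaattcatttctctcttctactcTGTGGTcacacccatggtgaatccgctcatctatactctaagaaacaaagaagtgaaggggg
The Olfr750 stretch holds, in this order, a RUNX, an ETS and a CTCF match. The Olfr433 stretch holds an AP-1 and a STAT5 match, the Olfr693 stretch a STAT5 match and the Olfr56 stretch an AP-1 match. In the Olfr525 stretch a GATA and a STAT5 match abut each other and an AP-1 match follows, and the Olfr15 stretch holds a RUNX match. A match describes these letters and does not show that a factor was bound.

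Most olfactory receptor genes had no peak at all. Of the 1405 olfactory receptor symbols in the GENCODE M21 annotation, 220 (15.7%) had at least 1 peak and 1185 had none. Protein-coding genes (179 of 1134, 15.8%) and pseudogene models (41 of 271, 15.1%) had peaks about as often. Genes without a peak carry no count in the deposited table, so their accessibility was not measured, and the values below describe only the loci where a peak was called. A single peak was found at 158 symbols. The clusters on chromosome 2 held 108 peaks and those on chromosome 7 held 75, and the peaks lay on 17 chromosomes in all.

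A few symbols gathered many peaks. Olfr56 was named in 37 peaks over 130 kb of chromosome 11 (48978851-49109200), Olfr449 in 15 peaks within 0.932 kb of chromosome 6, Olfr1368 in 12 peaks within 2.97 kb of chromosome 13 and Olfr713 in 9 peaks within 0.682 kb of chromosome 7. Of these, 14 Olfr56, 15 Olfr449, 9 Olfr1368 and 9 Olfr713 peaks overlap another member, and overlapping peaks are not independent. Over the whole set 68 peaks overlap another. After merging of overlaps the 381 peaks formed 324 regions. Of the 37 Olfr56 peaks, 30 also named a gene of the interferon-inducible GTPase cluster in which Olfr56 lies (Ifi47, Tgtp1, Tgtp2 and their neighbours, which encode GTPases of cell-autonomous defence). Counts in those peaks cannot be assigned to Olfr56 rather than to the GTPase genes. Over all members, 349 peaks named olfactory receptors alone and 32 named another gene too.

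Accessibility at these loci was low, and lower than at peaks in general. The median peak of the set had a mean of 0.838 counts per M counts in all peaks (CPM) over the 31 libraries, against 2.23 CPM over all peaks, and the members ran from 0.0532 to 34.6 CPM. The peaks were also narrow, with a median width of 200 bp against 366 bp over all peaks, so levels were compared per kb of peak width. On that scale the median was 4.23 CPM per kb for the olfactory receptor peaks and 6.83 for all peaks, and 91 of the 381 (23.9%) lay above the median of all peaks. By CPM, 110 members (28.9%) lay in the lowest 10% of all peaks and 4 in the highest 10%. Together the members held 0.0660% of all counts, and 10 peaks carried 25.6% of the members' counts.

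**Figure D1:**
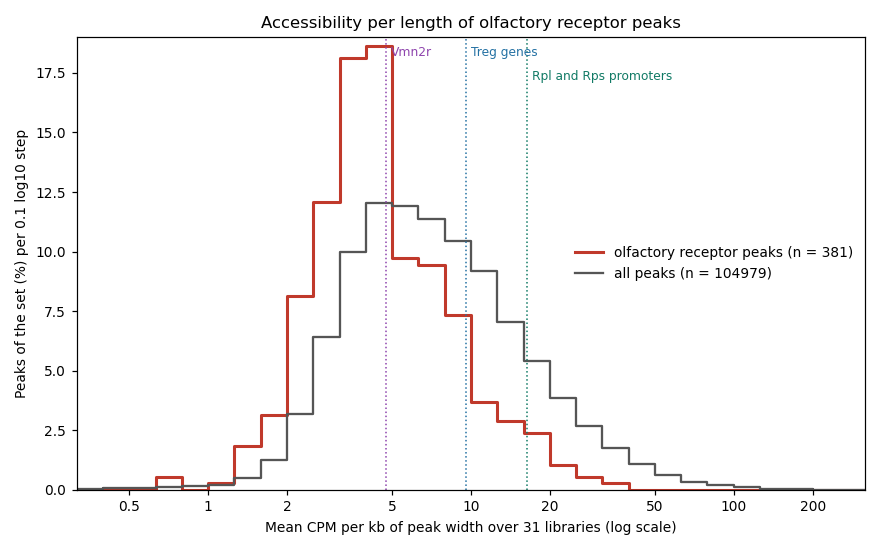
Distribution of mean accessibility (CPM per kb of peak width over 31 libraries, log scale) for the 381 olfactory receptor peaks (red) and all 104979 peaks (grey), as the percentage of each set per step of 0.1 log10. Dotted lines mark the medians of Vmn2r peaks, peaks of Treg genes and promoters of ribosomal protein genes; the olfactory receptor distribution lies left of that of all peaks, with a median of 4.23 against 6.83 CPM per kb.

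Other tissue-restricted families had levels in the same range. Peaks of the vomeronasal receptor genes had medians of 4.73 CPM per kb (Vmn2r, 89 peaks) and 3.35 (Vmn1r, 13 peaks). Bitter taste receptor genes (Tas2r) had 3.63 over 15 peaks, keratin-associated protein genes (Krtap) 4.32 over 13 and beta defensin genes (Defb) 3.70 over 13. Genes of T cells and Tregs lay higher, with 9.54 CPM per kb over 86 peaks of 6 Treg genes such as Foxp3 and Il2ra and 11.5 over 46 peaks of 7 T cell genes, and promoters of ribosomal protein genes had 16.3 over 264 peaks. All 7 T cell and all 6 Treg genes had peaks. Of genes that mark other cells, 2 of 5 B cell, 2 of 3 NK cell and 3 of 5 myeloid genes had peaks, with medians of 5.38 CPM per kb over 4 peaks, 16.02 over 15 and 4.66 over 3. The NK cell peaks, of Klrb1c and Eomes, thus had a higher median than those of the Treg and T cell genes, while Ncr1 had no peak. Of 2 CD8 T cell genes, 2 had peaks, with a median of 9.83 CPM per kb over 17, above that of the Treg genes. Of 4 erythroid genes, 3 had peaks, with a median of 9.515 over 22, close to that of the Treg genes. Peaks of olfactory sensory neuron genes had a median of 8.89 over 26. Summed over their peaks, the libraries had 5.42 to 18.4 CPM at B cell, 55.3 to 151.7 at NK cell, 3.16 to 9.53 at myeloid, 44.3 to 129.9 at CD8 T cell and 35.4 to 127.5 at erythroid genes. The part of other cell types in the levels of the olfactory receptor peaks was not tested.

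The annotated class made little difference within the set. The annotation placed 217 members between genes, 60 at promoters, 49 at 3' ends, 42 in introns and 13 in exons. Promoter members had a median of 4.10 CPM per kb, against 11.7 for the other promoter peaks of the table, while intergenic members had 4.37 against 5.45. Only 39 members lay within 500 bp of an annotated olfactory receptor start. By their nearest genes, 256 members lay between olfactory receptor genes (median 3.98 CPM per kb) and 30 over another gene (7.23). A further 89, called cluster edge, had a receptor gene on a single side (4.94). Whether that receptor gene belongs to a cluster was not checked, so peaks beside an isolated receptor gene may be among them. The other 6, called lone, overlapped a receptor gene and had no receptor gene on either side (3.87). Of the 10 highest members, 7 were of the cluster edge class.

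**Figure D2:**
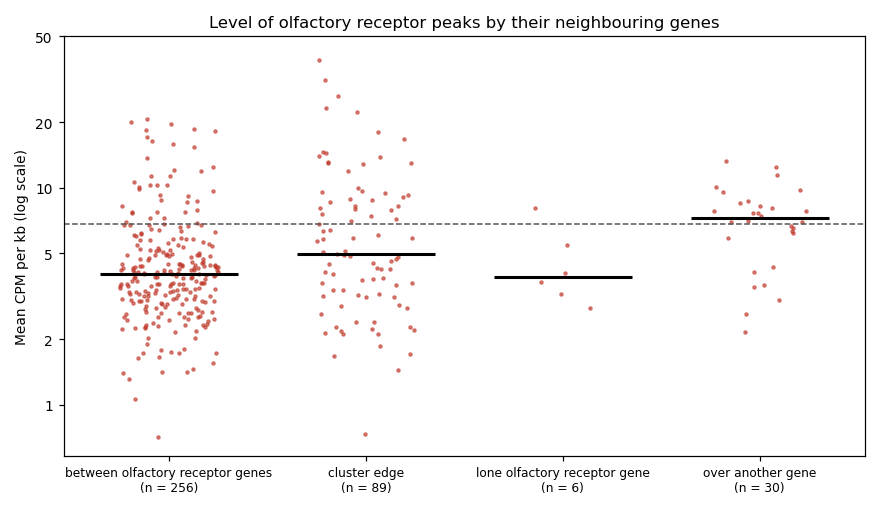
Mean accessibility (CPM per kb, log scale) of each olfactory receptor peak by its neighbouring genes, with the median of each class as a black bar and the median of all peaks (6.83) as a dashed line. Peaks over another gene had the highest median (7.23), and the 3 most accessible members are of the cluster edge class (a receptor gene on a single side).

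A small number of members were well-open sites. The peak at the 3' end of Olfr750 on chromosome 14 (51064805-51065693), 7144 bp from Rnase12, a gene of the ribonuclease A family, was the highest. It had 31.5, 41.0 and 37.6 CPM in FP libraries and 24.1, 23.3 and 48.5 CPM in PBS libraries at 72 h. Over all libraries it ran from 16.1 to 48.9 CPM, and the groups overlapped at 72 h. The Olfr433 promoter peak on chromosome 1 (174040478-174041478) covers the annotated start of that gene and lies 8668 bp from Ifi205, which encodes an interferon-inducible protein. It ran from 21.5 to 44.5 CPM. At 72 h its FP libraries (27.9, 26.9 and 22.0 CPM) lay below its PBS libraries (33.0, 29.6 and 31.5 CPM), with a log2 fold change of -0.30 ± 0.16 that did not pass (edgeR, adjusted p = 0.930). The intergenic Olfr693 peak on chromosome 7 (106644370-106645165) ran from 12.2 to 37.7 CPM. Among all peaks of the table these 3 stood at the 97.4, 96.9 and 94.2 percentile marks by CPM.

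The next members were less accessible. A second Olfr750 peak had a mean of 15.1 CPM, a peak near the pseudogene Olfr1421-ps1 12.9, a peak of Olfr1359 beside the histone gene Hist1h2bl 12.0, 2 peaks of the pseudogene Olfr184-ps1 10.1 and 8.44, an Olfr288 peak 8.65 and the Olfr56 and 9930111J21Rik2 promoter peak 8.61. The last of these is shared with a GTPase-cluster gene, and it had 8.54, 10.1 and 7.50 CPM in FP, 9.71, 10.9 and 9.48 CPM in IL2 and 7.32, 4.96 and 6.98 CPM in PBS libraries at 16 h. Both treated groups lay above PBS there, by 0.48 ± 0.27 for FP (edgeR, adjusted p = 0.970) and 0.65 ± 0.27 for IL2 (edgeR, adjusted p = 1.0) on the log2 scale. It had 9.79, 15.6 and 14.6 CPM in FP libraries and 10.3, 8.36 and 12.1 CPM in PBS libraries at 72 h, and these groups overlapped. Per kb another Olfr750 peak, of 222 bp, joined the leading members, with 23.4 CPM per kb. Of the peaks within 500 bp of a receptor start, those of Olfr658 (8.21 CPM), Olfr530 (3.40), Olfr549 (2.38), Olfr247 (2.33) and the pseudogene Olfr1069-ps1 (2.51) were further examples beside those of Olfr433 and Olfr525.

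**Figure D3:**
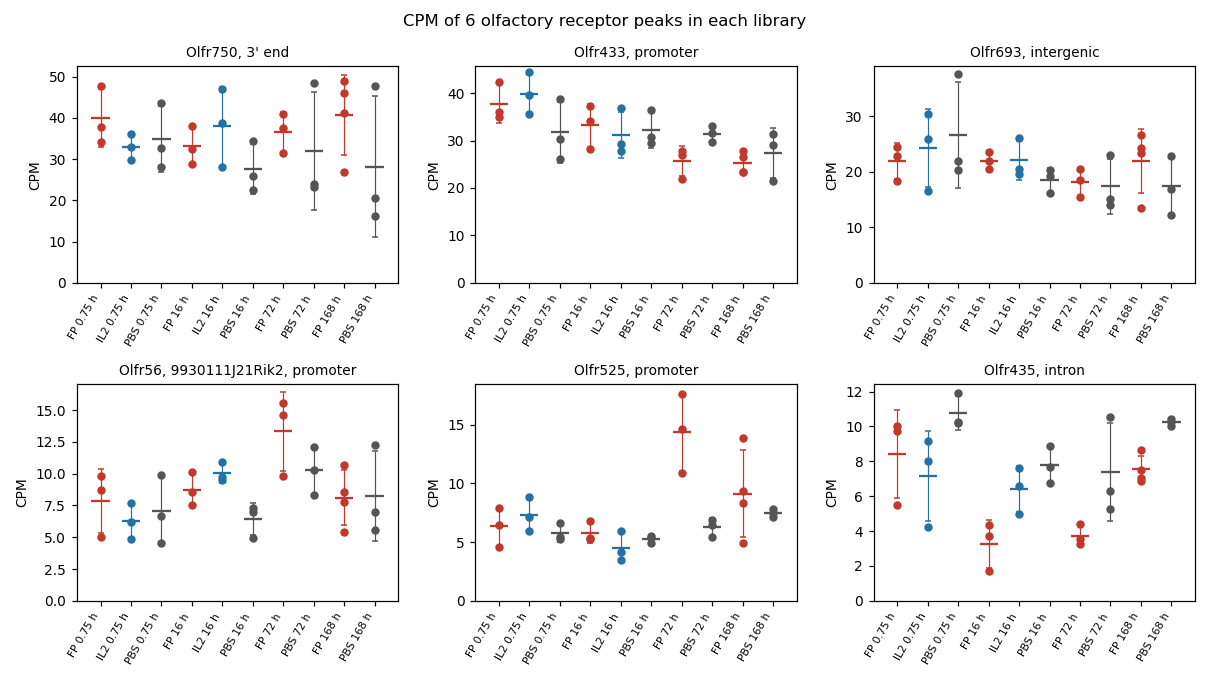
CPM of 6 olfactory receptor peaks in each of the 31 libraries (points), with the group mean and SD (bars), by treatment and time. FP libraries lie wholly above PBS libraries for Olfr525 at 72 h, and wholly below them for Olfr435 at each of the 4 times; most other FP and PBS groups overlap.

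The level of the set differed between libraries. The summed level of all members ran from 546.8 CPM (FP at 72 h, replicate 3) to 977.7 CPM (PBS at 168 h, replicate 1). For the other 371 peaks the sum ran from 388.8 to 875.7 CPM in the same libraries, while for the 10 highest peaks it ran from 102.0 CPM in PBS replicate 1 at 168 h to 212.9 CPM in PBS replicate 2 at 0.75 h. The library with the highest sum of weak peaks thus had the lowest sum of strong ones, and it was also the shallowest, with 7.39 M counts where the deepest had 59.6 M. FP replicate 2 at 168 h (12.3 M counts) had 765.5 and 124.5 CPM, and PBS replicate 2 at 168 h (13.4 M) had 737.1 and 133.9 CPM. Depth moves with these levels, and its part in them was not tested. FP replicate 3 at 0.75 h had a weak-peak sum of 740.3 CPM at 25.2 M counts. Weak and strong sums did not always move in opposite directions: at 0.75 h IL2 replicate 2 had 506.3 and 191.0 CPM and IL2 replicate 1 had 429.0 and 152.7 CPM.

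**Figure D4:**
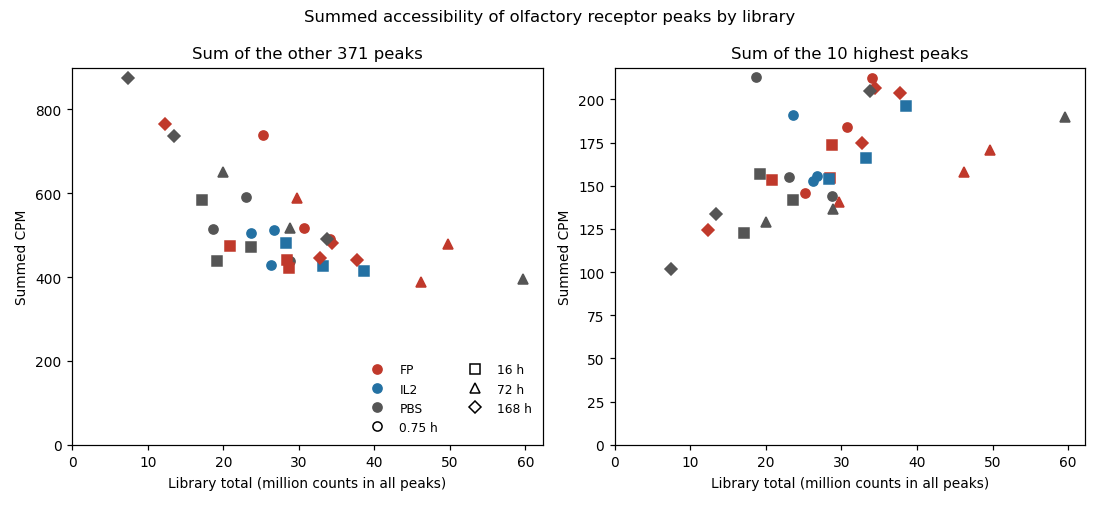
Summed CPM of the 371 weaker (left) and the 10 highest (right) olfactory receptor peaks against the library total, 1 point per library, coloured by treatment and shaped by time. The 3 shallowest libraries, of 7.39, 12.3 and 13.4 M counts, have weak-peak sums of 737.1 CPM or more.

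Group means of the summed level ran from 605.2 CPM (FP at 16 h) to 848.0 CPM (PBS at 168 h). At 0.75 h they were 763.5 ± 106.4 CPM in FP, 649.3 ± 60.2 in IL2 and 684.8 ± 90.03 in PBS libraries (SD, n = 3 each). At 16 h they were 605.2 ± 18.6 in FP, 612.8 ± 20.8 in IL2 and 638.8 ± 60.1 in PBS libraries (SD, n = 3 each). At 72 h they were 641.3 ± 91.0 in FP and 673.3 ± 99.5 in PBS libraries (SD, n = 3 each), and at 168 h 710.6 ± 123.1 in FP (n = 4) and 848.0 ± 142.6 in PBS libraries (n = 3). The ranges of FP and PBS libraries overlapped at every time, and so did those of IL2 and PBS libraries. At 0.75 h the FP libraries (700.3 to 886.3 CPM) lay above the IL2 libraries (581.7 to 697.3 CPM) on the library-total scale. With TMM scaling they overlapped, at 669.6, 645.3 and 955.8 CPM in FP and 614.2, 653.2 and 676.2 CPM in IL2 libraries. At 16 h FP and IL2 libraries overlapped.

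Spread between replicates was larger than for peaks in general, without matching for abundance, which was lower in the members. The median SD of log2 CPM within a group was between 0.60 (FP at 16 h) and 0.92 (PBS at 168 h) for the members, against 0.33 (FP at 72 h) to 0.54 (PBS at 168 h) over all tested peaks. For the 10 highest members it was 0.15 to 0.35, below the value for all tested peaks in each group. The biological coefficient of variation, edgeR's measure of spread beyond counting error, had a median of 57.3%, 59.3%, 54.0% and 62.7% for members at 0.75, 16, 72 and 168 h, against 40.6%, 39.2%, 34.1% and 44.4% for all tested peaks. A member had a median of 20 counts in a library, and 5.61% of the members' values were 0, against 1.99% over all peaks. A count of 0 allows up to 0.0503 CPM in the deepest and 0.406 CPM in the shallowest library (3 counts of the total, counting error only).

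The response of these loci was then compared with same-time PBS in a fit of all peaks. No olfactory receptor peak passed an adjusted p of 0.05 in any of the 8 comparisons (edgeR's quasi-likelihood test with Benjamini-Hochberg adjustment). At 0.75 h after IL2, 0 of 337 tested members were called, where 0.497% of all tested peaks were; 11 members had an unadjusted p under 0.05 (5.74% of all tested peaks) and DESeq2 called 1 (1.11% of all). At 0.75 h after FP, 0 of 337 were called (0.00199% of all), 6 had an unadjusted p under 0.05 (3.14% of all) and DESeq2 called 0 (0.221% of all). At such rates of calls over all peaks, 0 calls is near the background and is no result about the members.

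Later times gave the same counts. At 16 h after IL2, 0 of 332 members were called (0% of all tested peaks), with 20 at an unadjusted p under 0.05 (3.63% of all) and 0 by DESeq2 (0.00198% of all). At 16 h after FP, 0 of 332 were called (0.114% of all), with 13 unadjusted (5.31% of all) and 0 by DESeq2 (0.485% of all). At 72 h after FP, 0 of 319 were called (0% of all), with 14 unadjusted (5.21% of all) and 1 by DESeq2 (0.140% of all). At 168 h after FP, 0 of 356 were called (0% of all), with 16 unadjusted (4.54% of all) and 0 by DESeq2 (0.0263% of all). The direct comparison of FP with IL2, 2 regimens of different dose, called 0 of 337 at 0.75 h (0% of all; 21 unadjusted, 3.66% of all; 0 by DESeq2, 0.00597% of all) and 0 of 332 at 16 h (0.141% of all; 20 unadjusted, 5.05% of all; 4 by DESeq2, 0.488% of all). Comparisons at a time share their PBS or IL2 libraries and are not independent.

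The members' median log2 fold changes were small and mostly below 0. They were -0.15 for IL2 and 0.05 for FP at 0.75 h, -0.25 for IL2 and -0.27 for FP at 16 h, and -0.25 at 72 h and -0.41 at 168 h for FP, while medians over all tested peaks lay between -0.03 and 0.02. Peaks of like abundance in the whole table moved in the same direction: those of 0.562 to 1.00 CPM had medians of -0.12 and 0.02 at 0.75 h, -0.23 and -0.17 at 16 h, -0.18 at 72 h and -0.27 at 168 h in the same order. The 10 highest members did not share the medians below 0 at the later times. Theirs were 0.27 for IL2 and 0.28 for FP at 16 h, and 0.03 at 72 h and 0.29 at 168 h for FP. At 0.75 h they were -0.15 for IL2 and 0.05 for FP, as for the whole set. For FP against IL2 the members' medians were 0.19 at 0.75 h and 0.01 at 16 h. The medians moved by as much when single libraries were left out: at 168 h from -0.79 without FP replicate 2 to -0.08 without PBS replicate 1, at 72 h from -0.68 without FP replicate 1 to 0.00 without PBS replicate 2, at 0.75 h after FP from -0.25 without FP replicate 3 to 0.22 without PBS replicate 3, and at 16 h after FP to 0.13 without PBS library c2. After IL2 they ran from -0.24 without PBS replicate 1 to 0.07 without PBS replicate 3 at 0.75 h, and at 16 h from -0.50 without IL2 library c1 to -0.0041 without PBS library c2. Between FP and IL2 they ran from -0.09 without FP replicate 3 to 0.31 without FP replicate 2 at 0.75 h, and at 16 h from -0.07 without IL2 library c3 to 0.16 without IL2 library c1. With the library total as a covariate the medians were -0.05 for IL2 and 0.23 for FP at 0.75 h. In that fit they were 0.41 for IL2 and 0.18 for FP at 16 h. For FP they were 0.03 at 72 h and 0.09 at 168 h, so the sign below 0 did not hold at 16, 72 and 168 h in that fit. At 16 h every IL2 library (28.3 to 38.6 M counts) was deeper than every PBS library (17.1 to 23.6 M). Depth and IL2 treatment therefore cannot be told apart there. The FP libraries at 16 h (20.8 to 28.7 M) overlapped the PBS libraries in depth. The members with every library of a group at 0 numbered 1 or 2 in 5 of the comparisons. Set to a bound from 3 counts over the group, they left the medians without the covariate as they were.

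**Figure D5:**
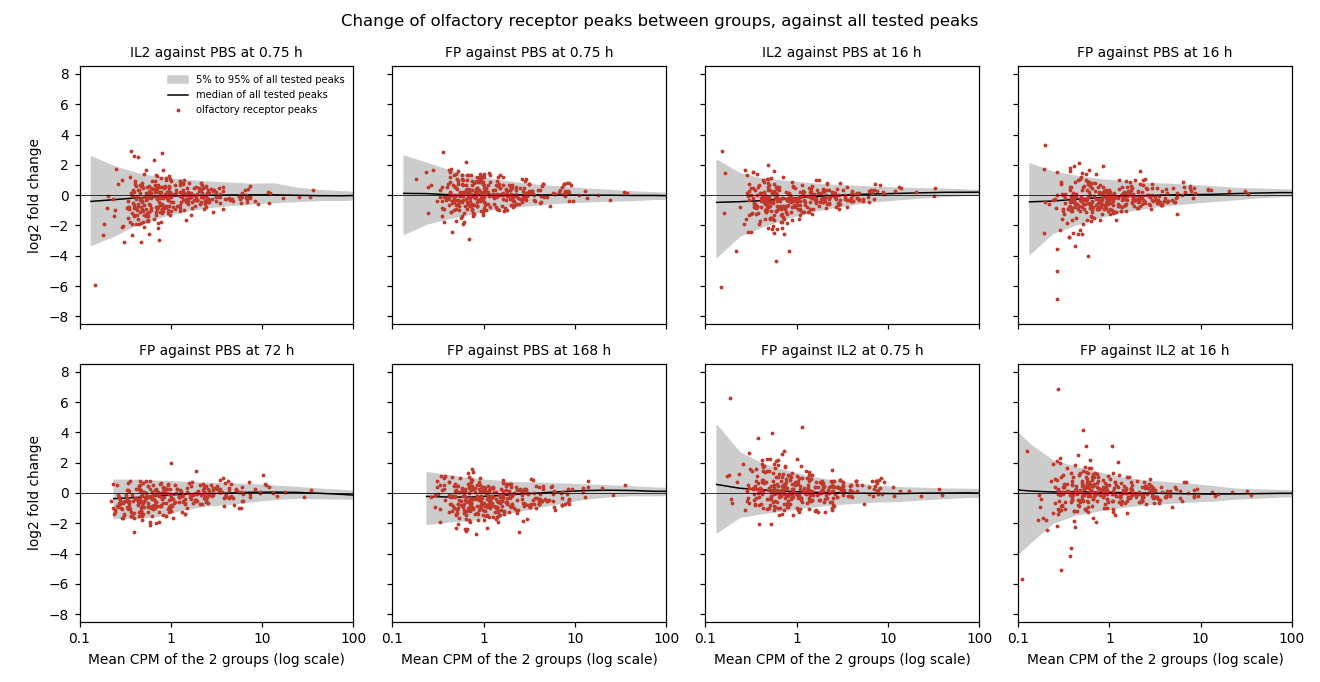
Log2 fold change of each tested olfactory receptor peak (red points) against the mean CPM of the 2 groups compared (log scale), over the range of all tested peaks (grey, 5% to 95%) and their median (black line), in 8 comparisons. The members follow the range of peaks of like abundance, which widens below 1 CPM.

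Members whose groups did not overlap were counted beside the share of all tested peaks. They numbered 21 of 337 for IL2 and 21 of 337 for FP at 0.75 h, where 10.8% and 7.84% of all tested peaks did not overlap. At 16 h they numbered 31 of 332 for IL2 (7.99% of all) and 41 of 332 for FP (11.2% of all). At 72 h they numbered 18 of 319 (10.8% of all) and at 168 h 12 of 356 (5.18% of all). Between FP and IL2 they numbered 41 of 337 at 0.75 h (8.94% of all) and 30 of 332 at 16 h (10.2% of all). The members' share was above that of all peaks in 3 of these comparisons. These were IL2 at 16 h (9.34%), FP at 16 h (12.3%) and FP against IL2 at 0.75 h (12.2%). In the other 5 it was below that of all peaks. It was 6.23% for IL2 and 6.23% for FP at 0.75 h, 5.64% for FP at 72 h and 3.37% for FP at 168 h. For FP against IL2 at 16 h it was 9.04%.

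The lowest unadjusted p for FP at 72 h belonged to a promoter peak of Olfr525 on chromosome 7 (140320809-140321695), the one whose sequence holds adjacent GATA and STAT5 matches. At 72 h it had 17.6, 14.6 and 10.9 CPM in FP libraries, against 5.41, 6.91 and 6.47 CPM in PBS libraries. The FP libraries lay wholly above the PBS libraries. The log2 fold change was 1.20 ± 0.24 (SE; edgeR, unadjusted p = 0.000517, adjusted p = 0.930), DESeq2 gave an adjusted p of 0.00355 and the fit with library total as a covariate one of 0.00955. The share of all tested peaks that passed in the covariate fit is not given here. At 168 h the same peak had 9.37, 13.9, 4.91 and 8.35 CPM in FP libraries and 7.85, 7.45 and 7.15 CPM in PBS libraries, which overlapped. At 0.75 h and 16 h the groups overlapped too.

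An intron peak of Olfr435 on chromosome 6 (43198034-43198787) lay lower in FP than in PBS libraries, without overlap, at each of the 4 times. This peak was named by the rule of lowest unadjusted p, and its adjusted p at 16 h after FP was the lowest among members. Its non-overlap at 16 h is therefore not independent of its choice. At 16 h it had 4.32, 3.73 and 1.71 CPM in FP libraries, against 6.77, 8.87 and 7.66 CPM in PBS libraries. At 72 h it had 3.57, 3.24 and 4.42 CPM in FP libraries, against 6.31, 10.6 and 5.26 CPM in PBS libraries. Neither difference passed the adjusted threshold: the log2 fold changes were -1.24 ± 0.37 (edgeR, adjusted p = 0.379) and -0.98 ± 0.33 (edgeR, adjusted p = 0.930). The differences were smaller at 0.75 h, at -0.41 ± 0.34 (edgeR, adjusted p = 1.0), and at 168 h, at -0.48 ± 0.22 (edgeR, adjusted p = 0.899). The IL2 libraries at 0.75 h (4.23 to 9.18 CPM) also lay wholly below the PBS libraries (10.2 to 11.9 CPM), so non-overlap there was not particular to FP. At 16 h the IL2 libraries (5.00 to 7.64 CPM) overlapped the PBS libraries.

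At 0.75 h the lowest unadjusted p of a rise after IL2 belonged to a peak at the 3' end of Olfr15 on chromosome 16 (3839613-3839934), a lone receptor gene. It had 0.685, 1.57 and 2.02 CPM in IL2 libraries, against 0.278, 0.107 and 0.174 CPM in PBS libraries, which are 8, 2 and 4 counts. The groups did not overlap, with a log2 fold change of 2.80 ± 0.82 (edgeR, adjusted p = 0.242; DESeq2, adjusted p = 0.0435). In FP libraries at the same time it had 0.529, 0.522 and 0.872 CPM. An Olfr56 and Ifi47 promoter peak on chromosome 11 (49076287-49076732) had 0.822, 1.08 and 1.23 CPM in FP libraries, 1.29, 0.592 and 1.39 CPM in IL2 libraries and 0.139, 0.322 and 0.217 CPM in PBS libraries at 0.75 h. FP and IL2 libraries lay above the PBS libraries, by 2.18 ± 0.76 (edgeR, adjusted p = 1.0) and 2.29 ± 0.76 (edgeR, adjusted p = 0.405) on the log2 scale. Over the 37 Olfr56 peaks as a whole, 0 were called in any comparison by edgeR or DESeq2, 0 to 6 had an unadjusted p under 0.05 (the 6 of 36 tested for FP against IL2 at 0.75 h, where 3.66% of all tested peaks did) and the median log2 fold change lay between -0.26 and 0.27.

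At 16 h the members called by DESeq2 between FP and IL2 libraries were weak peaks near 0 after IL2, and they were chosen for mention after their values were seen. The Olfr1098 peak on chromosome 2 had 0.384, 1.69 and 0.907 CPM in FP libraries, 0.141, 0.0301 and 0.181 CPM in IL2 libraries and 1.35, 1.75 and 1.46 CPM in PBS libraries. It was lower in IL2 than in PBS libraries, with a log2 fold change of -3.70 ± 0.83 (edgeR, adjusted p = 1.0) and no overlap of the groups, and this was the lowest unadjusted p among members for IL2 at 16 h. The Olfr1205 peak had 25, 2 and 11 counts in FP libraries and 0, 0 and 0 counts in IL2 libraries, and Olfr762-ps1 had 10, 50 and 20 counts against 0, 0 and 6. Olfr1287 had 81, 36 and 15 counts in FP libraries and 4, 8 and 11 counts in IL2 libraries. Its log2 fold change between FP and IL2 was 3.11 ± 0.80 (edgeR, adjusted p = 0.196; DESeq2, adjusted p = 0.0303).

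At 168 h the lowest unadjusted p of a fall was at an Olfr1012 promoter peak on chromosome 2 (85759587-85759939), with 0.794, 0.731, 0.640 and 0.557 CPM in FP libraries and 2.98, 3.13 and 1.22 CPM in PBS libraries. The FP libraries lay wholly below the PBS libraries, with a log2 fold change of -1.88 ± 0.53 (edgeR, adjusted p = 0.899). The values of 2.98 and 3.13 CPM came from the shallow PBS replicates 1 and 2 (7.39 and 13.4 M counts). The 1.22 CPM came from PBS replicate 4 (33.7 M). FP replicate 2, also shallow (12.3 M), had 0.731 CPM. The part of depth was not tested. An Olfr1364 intron peak on chromosome 13 had 4.98, 4.06, 4.13 and 3.50 CPM in FP libraries and 2.44, 2.23 and 1.78 CPM in PBS libraries, and its groups did not overlap (log2 fold change 0.94 ± 0.35; edgeR, adjusted p = 0.899). At 16 h after FP an intergenic Olfr1158 peak on chromosome 2 had 4.56, 3.20 and 1.99 CPM, against 0.592, 1.52 and 1.15 CPM in PBS libraries (log2 fold change 1.59 ± 0.53; edgeR, adjusted p = 0.555). An Olfr56 and Ifi47 intron peak on chromosome 11 (49084928-49085193) had the lowest unadjusted p among members lower in FP than in IL2 libraries at 0.75 h. It had 1.06, 1.73 and 0.872 CPM in FP libraries and 2.13, 3.51 and 3.07 CPM in IL2 libraries, without overlap (log2 fold change -1.28 ± 0.46; edgeR, adjusted p = 1.0), while its PBS libraries (1.11, 2.84 and 2.00 CPM) overlapped both. A further 3 members of lowest unadjusted p were thin and uneven: the Olfr1015 peak had 0, 0 and 1 counts in FP libraries at 16 h, 46, 0 and 4 in IL2 and 10, 18 and 2 in PBS libraries, and the Olfr831-ps1 peak had 8, 37 and 128 counts in FP, 0, 6 and 2 in IL2 and 45, 3 and 18 in PBS libraries at 0.75 h. An Olfr791 peak had 5, 5 and 3 counts in IL2 and 3, 23 and 60 in PBS libraries at 0.75 h. In each of these 3 peaks the replicates of at least 1 group differed widely.

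Differences between the effects at different times were tested in 1 fit of all 31 libraries, for 7 pairs of effects and 377 members, and 0 members passed in any of them by edgeR. For FP, all tested peaks passed at 0% for 16 h minus 0.75 h, 0% for 72 h minus 0.75 h, 0.000957% for 168 h minus 0.75 h, 0.000957% for 72 h minus 16 h, 0.0210% for 168 h minus 16 h and 0% for 168 h minus 72 h, and for IL2 at 0.0411% for 16 h minus 0.75 h. In the same order 12 (3.52% of all tested peaks), 10 (2.97%), 14 (5.34%), 6 (2.98%), 7 (4.90%), 5 (1.46%) and 19 (5.26%) members had an unadjusted p under 0.05. The members' shares ran from 1.33% to 5.04% and lay below the share of all tested peaks in each of the 7. These differences reuse the same groups and are not independent. Some gaps were small, as 5.04% against 5.26% for IL2 and 1.33% against 1.46% for FP at 168 h minus 72 h. For FP at 168 h minus 16 h it was 1.86% against 4.90%. DESeq2 was not run on these differences.

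Genes that act in olfactory neurons were followed as a related pathway. Of 10 olfactory sensory neuron genes, 4 had peaks: Gnal, which encodes the G protein alpha subunit of odorant signalling, Adcy3, which encodes its adenylyl cyclase, Cngb1, which encodes a channel subunit, and Stoml3. Omp, Cnga2, Ano2, Rtp1, Rtp2 and Gng13 had none. The highest Adcy3 peak, at its promoter, had 30.97 CPM and the highest Gnal peak 23.2 CPM, while the highest Stoml3 peak had 0.479 CPM. All 16 genes of receptor choice and silencing had peaks, among them Lhx2 (highest peak 5.04 CPM), Ebf1 (11.0 CPM), Cbx5, which encodes the heterochromatin protein HP1 alpha (47.5 CPM), and Setdb1, which encodes a histone H3 lysine methyltransferase (3.24 CPM). By edgeR 0 peaks of either list were called in any comparison, out of 26 and 87. In the sensory neuron list 0 to 3 peaks had an unadjusted p under 0.05 in a comparison. The 3 were of 24 tested for IL2 against PBS at 0.75 h, at 12.5% where 5.74% of all tested peaks did. DESeq2 called 1 in that comparison (1.11% of all), a Cngb1 peak named after its values were seen, and 0 in the other comparisons. The median log2 fold change of that list was 0.60 for IL2 and 0.05 for FP at 0.75 h, and 17 of its 26 peaks belong to Gnal, so it largely describes a single gene. In the choice and silencing list 1 to 14 peaks had an unadjusted p under 0.05, the 14 of 83 tested for FP at 72 h being the highest count, at 16.9% where 5.21% of all tested peaks did, and DESeq2 called 0 in every comparison.

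The members differed from other peaks in sequence. Their median GC content was 43.2%, against 48.8% over all peaks, and in 11.0% of them at least 50% of the bases were repeat-masked, against 3.77% over all peaks. Motifs were compared over the central 300 bases of the 139 members and 61619 peaks of at least that width. The ETS motif was present in 1.44% of these members, against 12.2% of all such peaks, and the EBF motif in 3.60% against 11.3%. The AT-rich motifs were commoner: the GATA motif was present in 22.3% against 13.0% and the LHX motif in 8.63% against 4.54%. The STAT5 motif was present in 14.4% against 10.7%, AP-1 in 11.5% against 10.5%, RUNX in 28.1% against 24.8%, CTCF in 6.47% against 5.12%, NF-kB in 0.719% against 2.04% and the E-box CANNTG in 81.3% against 75.4%. GC content moves with these shares, and its part in them was not tested.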

How the data were processed

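ATAC-seq was measured in 31 libraries of 10 groups. Reads, per the series design and the processing notes of the submitters, were mapped with BWA (bwa-mem) to GRCm38, also given as mm10, and peaks were called with MACS2 2.1.2 and kept by reproducibility between pseudo-replicates; how reads were counted, whether duplicates were removed and how a common peak set was made is not stated in the labels. The deposited values are raw read counts per peak with no normalization. Unquoted commas in 9561 gene lists shift the first library's column, recorded as an other unit although it too holds deposited whole-number counts, so each line was read backwards from its end. Per-sample columns without a sample or group numbered 0. The 16 h columns and titles are numbered differently, so a 16 h library (c1, c2 or c3) is known by its group and not by its title. The labels mention technical replicates, which are not separate in the table.

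Counts were fitted per time point over all peaks with edgeR 4.0.16 in R 4.3.3: TMM factors, filterByExpr (minimum count 10, minimum total 15), a quasi-likelihood F test with 1 coefficient per group, two-sided, and Benjamini-Hochberg adjustment over every peak tested, threshold 0.05. DESeq2 1.42.0 was an alternative, with others in scaling, filter, samples, covariate, members, replicates and pairing. The procedure was tested on simulated counts. CPM uses library totals, which ran from 7.39 to 59.6 M; log2 CPM used a prior count of 2. A SE is the log2 fold change divided by the square root of F. Sequences came from the RefSeq GRCm38.p6 genome and gene positions from GENCODE M21. Tables and figures used Python 3.11.15, pandas 2.3.3, pysam 0.24.0 and matplotlib 3.10.9.

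The members, lists, motifs and tests were chosen with earlier results of these data known. Peaks were named by rule: any past the threshold, the 10 highest by CPM and 5 by CPM per kb, the lowest unadjusted p in each direction of each comparison, and up to 10 within 500 bp of an olfactory receptor start. Peaks called only by an alternative and the Olfr56 peaks were named after their values were seen. No symbol starting with Olfr lacked a digit (0 peaks).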

Additional observations from a re-analysis of the deposited data

Results flagged for a closer look

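In the FP group at 168 h, replicate 2 stood apart in the summed level of the 371 weaker olfactory receptor peaks, at 765.5 CPM where replicates 1, 3 and 4 had 444.6, 482.6 and 439.8 CPM. Its gap to the nearest library was 0.869 of the range of the group, above Dixon's 95% critical value. It was the shallowest library of the group, with 12.3 M counts; the part of depth was not tested. At the Olfr15 peak the same library had 0 counts where replicates 1, 3 and 4 had 15, 16 and 20 counts, a gap of 0.863 of the range. A count of 0 there allows up to 0.244 CPM (3 counts of the total). Only the FP group at 168 h has 4 libraries, so it alone was examined, over 33 values, and chance flags about 1 in 20.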

How the results depend on the processing

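Of 145 alternative counts of called members, 141 were 0, as in the comparisons reported, and 4 were above 0. DESeq2 called 1 member for IL2 against PBS at 0.75 h, 1 for FP against PBS at 72 h and 4 for FP against IL2 at 16 h. The fit with library total as a covariate called 2 for FP against PBS at 72 h, Olfr525 and Olfr753-ps1. How many of all tested peaks that fit called is not given here, so its 2 calls cannot be set beside a background. The cause was not tested. Leaving out any 1 library gave 0 calls in each comparison (lowest 0, highest 0). Leaving out PBS replicate 1 and FP replicate 2 of 168 h together, an alternative chosen after seeing the data, gave 0 calls and a median of -0.47. Restricting the members to peaks with olfactory receptor symbols alone, merging overlaps, other scalings, no filter, the compared groups alone and all libraries in 1 fit also gave 0. Of 145 alternative medians, 14 had the other sign; 4 of them differed by more than the spread used as the limit. Those were IL2 at 0.75 h without PBS replicate 3 (0.07), IL2 at 16 h with the covariate (0.41), and FP at 16 h with the covariate (0.18) and without PBS library c2 (0.13). With the replicate number as a block, 0 members were called at 0.75 h, at 72 h and at 168 h. The numbers were not taken as pairing the samples, and whether they do was not tested further. Same-numbered libraries deviated together with correlations from 0.00379 to 0.242 at 0.75 h, from -0.19 to 0.584 at 72 h and from -0.228 to 0.416 at 168 h. Differently numbered libraries had correlations from -0.235 to 0.0612 at 0.75 h, from -0.665 to 0.578 at 72 h and from -0.6 to 0.437 at 168 h. At 0.75 h the same-numbered values were thus all above 0, unlike the others. No paired analysis was possible at 16 h because the columns carry other numbers than the titles. With a median of 20 counts a member and a median coefficient of variation above 50%, changes in single weak peaks were not well resolved.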
